A study of Mus musculus with 23 samples.

Results

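The secretory pathway and unfolded protein response genes are a list of 44 mouse genes whose products bring new proteins into the endoplasmic reticulum (ER), fold and inspect them there, and answer when folding falls behind. Each gene was read from 1 probe set, a group of short array probes for one transcript: the probe set that is annotated to that gene symbol alone and has the highest mean over all 23 arrays. By this rule 43 of the 44 genes were measured, out of 18193 genes on the array, and all 43 were among the 15378 genes that passed a filter on low values. Sec61g, a subunit of the translocation channel, lies on a probe set that lists several symbols and was not represented. Values are the deposited log2 values, so a difference of 1 is a doubling of signal, and levels are compared only between arrays for the same probe set, never between genes.

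The arrays hold messenger RNA of mammary epithelial cells purified from female C57BL/6 mice, and the labels name no deletion, transgene or drug for any group. The pregnant mice were at day 10, day 16 or day 19 of pregnancy, the other parous mice were retired breeders, and the virgin mice were 3 weeks or 9 weeks old. Mature luminal cells, luminal progenitors and the preparation labelled stem cells were profiled at every stage except day 19, which has mature luminal cells alone. The 23 arrays form 16 groups, of which 7 have 2 arrays (all 3 cell types at 9 weeks, stem cells and luminal progenitors at 3 weeks, stem and mature luminal cells at day 10) and 9 have 1. The labels do not give the sorting gates, and they do not say whether the arrays of a group come from separate mice, so p-values reflect only how far these samples differ from each other, and that spread may be technical. In such bulk RNA, fewer cells of a type and less RNA per cell cannot be told apart.

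Secreted and membrane proteins enter the ER through the signal recognition particle and the Sec61 channel, lose their signal peptide to signal peptidase, and fold with the help of chaperones and disulfide isomerases. Proteins that fail are drawn back into the cytosol and destroyed, a route called ER-associated degradation. When unfolded proteins build up, the membrane sensors Ern1 (IRE1 alpha), Atf6 and Perk start the unfolded protein response, in which spliced Xbp1, cleaved Atf6 and Atf4 switch on chaperone and degradation genes. The mammary luminal epithelium is known for expanding its ER and its secretory capacity before lactation.

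The chaperone genes are textbook targets of this response. The DNA element that Atf6 and Xbp1 act through, the ER stress response element (ERSE), can be read in some of their promoters. Promoter windows from 250 bases before to 50 bases after the annotated start were available in RefSeq (build GRCm38.p6) for 36 of the 44 genes. The 19-letter ERSE, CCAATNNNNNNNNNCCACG, was found on either strand in 9 of the 36 (25%), against 0.137% of the 27025 genes with a window. The ERSE-II, in which ATTGG and CCACG stand 1 base apart, was found in 2 of the 36 (5.56%), against 0.0444% of all genes. One or the other element lay in 11 of the 36 (30.6%), against 0.181% of all genes, and no member had both. Another short element, TGACGTG, the core of the unfolded protein response element, was in 2 of the 36 (5.56%; Hspa5 and Kdelr3), against 2.22% of all genes. The ERSE and ERSE-II matches of the 11 genes that hold one are shown. Each is read 5′ to 3′ along its own strand with the fixed letters in capitals. The number after each gene is the position, relative to the start of transcription, of the match's base farthest upstream on the gene's strand. For a match on the opposite strand that is the last base printed.
Hspa5 (-65): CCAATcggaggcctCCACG
Hsp90b1 (-212): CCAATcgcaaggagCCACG
Hsp90b1 (-107, opposite strand): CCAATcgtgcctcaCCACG
Calr (-162, opposite strand): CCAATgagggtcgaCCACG
Canx (-145): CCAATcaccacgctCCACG
Dnajc3 (-105): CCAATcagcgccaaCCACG
Creld2 (-126, opposite strand): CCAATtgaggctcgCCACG
Pdia6 (-98): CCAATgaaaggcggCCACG
Syvn1 (-44): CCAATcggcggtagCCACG
Derl3 (-156, opposite strand): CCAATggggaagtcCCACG
Herpud1 (-52): ATTGGgCCACG
Dnajb11 (8): ATTGGcCCACG

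The 250 bases before the start are printed for 3 genes that recur in the results, with the ERSE in capitals. Hspa5, which encodes the main ER chaperone BiP, is the reference case of an ERSE promoter. Dnajc3 and Derl3 carry an ERSE too, and in pregnancy their differences lay on opposite sides of 0.
Hspa5, chr2:34771840-34772089, plus strand: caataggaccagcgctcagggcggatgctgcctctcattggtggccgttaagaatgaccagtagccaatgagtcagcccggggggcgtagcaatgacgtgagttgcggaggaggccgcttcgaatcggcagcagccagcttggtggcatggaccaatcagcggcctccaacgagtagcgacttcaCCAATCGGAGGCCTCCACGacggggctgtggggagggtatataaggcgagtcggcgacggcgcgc
Dnajc3, chr14:118937682-118937931, plus strand: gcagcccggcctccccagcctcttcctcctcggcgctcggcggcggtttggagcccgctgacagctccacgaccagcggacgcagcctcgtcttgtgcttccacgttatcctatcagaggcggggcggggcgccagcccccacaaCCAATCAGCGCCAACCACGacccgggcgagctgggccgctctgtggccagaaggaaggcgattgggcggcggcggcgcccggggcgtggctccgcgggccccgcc
Derl3, chr10:75893148-75893397, plus strand: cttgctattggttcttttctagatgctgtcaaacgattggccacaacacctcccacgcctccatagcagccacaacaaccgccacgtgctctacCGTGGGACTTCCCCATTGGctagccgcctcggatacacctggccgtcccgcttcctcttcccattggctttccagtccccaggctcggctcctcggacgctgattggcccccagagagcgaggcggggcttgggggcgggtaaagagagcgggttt
A match is a run of letters and not a measured binding site.

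Some arrays stood apart in their titled number, in single markers or in RNA quality. The titles number the arrays of the 7 groups that have 2 (and call the day 19 array replicate 1), and within those groups replicate 1 differed from replicate 2 over much of the array, with 31.7% of the 15378 genes passing the test (14.7% higher, 17% lower in the replicate 1 arrays). The number therefore entered a second fit of every comparison as a term (a replicate block), and its values stand beside the first where they differ in call. The term is estimated from those 7 pairs of arrays alone, and the 8 unnumbered arrays were then treated as replicate 2. On the mature luminal replicate 1 array at 9 weeks the 10 basal markers were split: the keratins Krt5 (11.81) and Krt14 (12.88) and the factor Trp63 (11.54) were the highest of the 8 mature luminal arrays, while the contractile genes Cnn1 (4.22) and Mylk (6.81) were the lowest. The mean of the 10 was 7.67 on that array, inside the 6.32 to 9.19 of the mature luminal arrays. The gap between the 3′ and 5′ control probe sets of Gapdh, which widens as RNA breaks down, was 5.16 on the 3-week mature luminal array and 3.77 on the retired breeder stem array, against 0.87 to 2.72 on the other 21. Of the milk protein genes 6 of 7 were higher on average in pregnancy (days 10 and 16) than at 9 weeks, set against 3.77% of all genes. Single arrays could overlap: Csn1s2a read 10.95 on the 9-week luminal progenitor replicate 2 array and 10.76 on the day 10 stem replicate 1 array.

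More members passed for the replicate number of the arrays than for any stage or cell type. Of the 43 genes, 22 (51.2%) differed between the replicate 1 and replicate 2 arrays of the 7 groups with both, set against 31.7% of all genes, and 19 of the 22 were higher in the replicate 1 arrays. The median difference was 0.34 over the 43 members and -0.02 over all genes. The disulfide isomerases Pdia3, Pdia4, Pdia6 and P4hb, which form and reshuffle disulfide bonds in the ER, all passed (4 of 4 higher, median 0.90). Among the 11 chaperones and co-chaperones 6 were higher (Hsp90b1, Calr, Dnajb11, Sdf2l1, Manf and Creld2) and Dnajc3 was lower. Among the 7 degradation genes 3 were higher (Herpud1, Edem1 and Derl1), and Sel1l and Derl3 were lower. Of the 13 translocation genes 5 were higher (Sec62, Sec63, Ssr2, Spcs1 and Srp9), and of the 2 KDEL receptors Kdelr3 was. None of the 6 stress sensors and transcription factors passed. Means of some marker lists split by this number too. The B and plasma cell mean was lower on replicate 1 in every group with both arrays. So was the dissociation response mean, and the leukocyte mean in all but 9-week stem cells. On the 9-week luminal progenitor arrays they were 4.18, 12.43 and 5.04 on replicate 1, and 6.95, 12.67 and 7.13 on replicate 2. The part of these shifts in the members' differences was not tested.

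Pdia4, a disulfide isomerase of the ER lumen, separated the arrays completely. It read 7.69 to 8.72 (median 8.21) on the 8 replicate 1 arrays and 4.04 to 6.85 (median 5.90) on the other 15. These ranges did not overlap. Between replicate 1 and replicate 2 the difference was 3.20 ± 0.33 (SE; limma adjusted p = 0.00013), positive in all 7 groups that have both arrays, between 1.97 and 4.24. As 4 of the 7 replicate 2 arrays read Pdia4 below the array's own median, the difference is not an exact fold. Dnajb11, a co-chaperone of BiP, was higher by 1.62 ± 0.16 (limma adjusted p = 0.00012) and in 7 of 7 groups. Manf, a secreted ER stress protein, was higher by 1.48 ± 0.18 (limma adjusted p = 0.00025) and also in 7 of 7. Herpud1, an ER membrane protein of the degradation complex, was higher by 1.22 ± 0.29 (limma adjusted p = 0.0081). Sec63, which links BiP to the Sec61 channel, was higher by 1.19 ± 0.21 (limma adjusted p = 0.0014). So the genes high in the replicate 1 arrays span folding, translocation and degradation.

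The 3 genes that ran the other way were Derl3, Sel1l and Dnajc3. Derl3, a Derlin of the degradation machinery, was lower in the replicate 1 arrays by a log2 difference of -1.84 ± 0.49 (limma adjusted p = 0.013) and lower in 6 of 7 groups. Sel1l, the adaptor of the Syvn1 ubiquitin ligase, differed by -1.44 ± 0.28 (limma adjusted p = 0.0026), lower in all 7. Dnajc3 (P58IPK), a BiP co-chaperone, differed by -0.47 ± 0.16 (limma adjusted p = 0.038). The master genes of the response did not pass: the difference was 0.22 for Hspa5 (limma adjusted p = 0.11), 0.10 for Xbp1 (limma adjusted p = 0.64) and -0.22 for Atf4 (limma adjusted p = 0.093). Of the 11 genes with an ERSE or ERSE-II, 6 were higher, 2 lower and 3 did not pass. Of the 24 measured genes whose window held neither, 10 were higher, 1 lower and 13 did not pass, and of the 8 without a window 3 were higher and 5 did not pass. These counts are set against 19 higher and 3 lower of all 43 members, and 14.7% higher and 17% lower of all genes. A link between the elements and the difference was not tested.

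**Figure D1:**
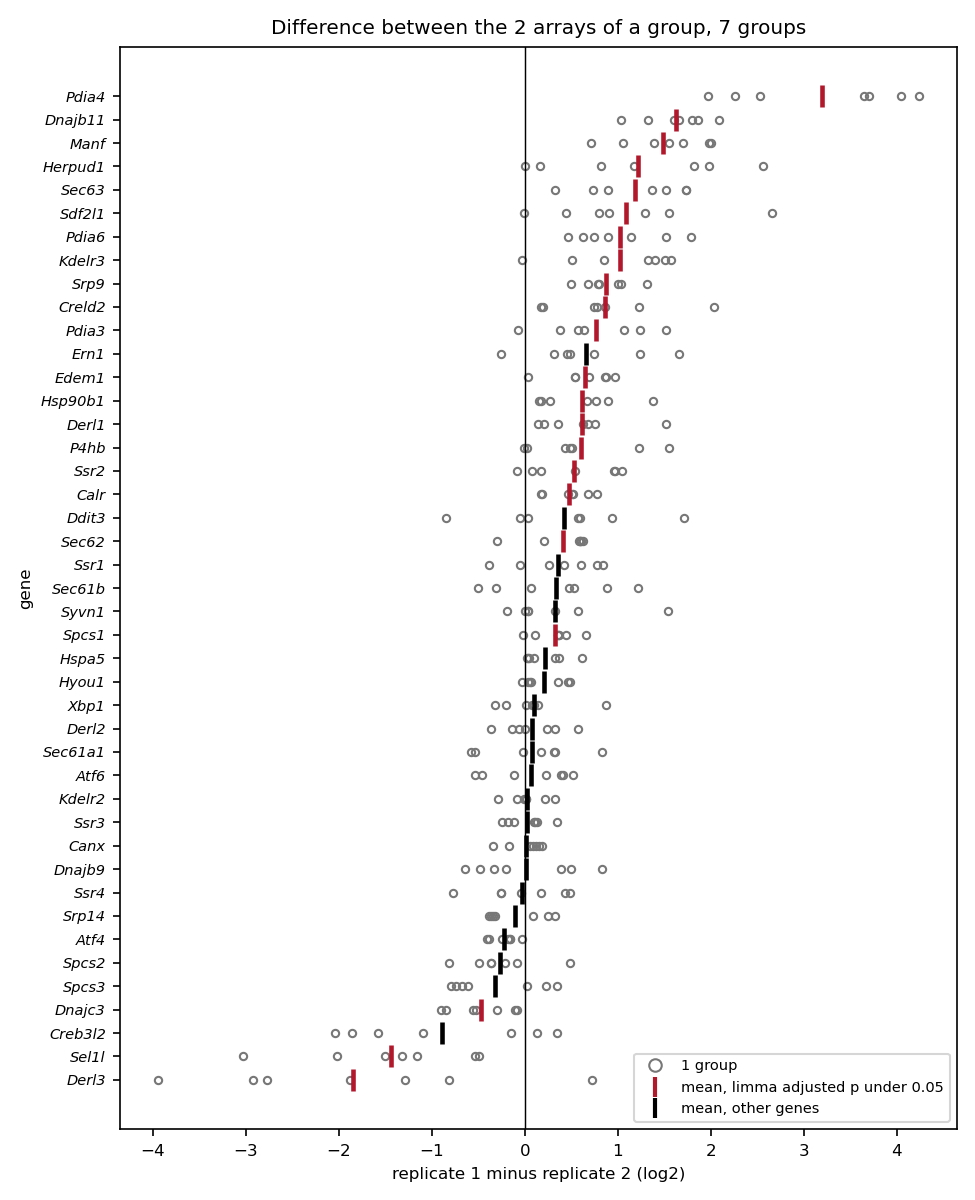
Difference in log2 value between the replicate 1 and replicate 2 arrays (x axis) for each of the 43 genes (rows, in order of their mean difference). Each point is 1 of the 7 groups with 2 arrays and each bar is their mean, red where the adjusted p is under 0.05; Pdia4 lies farthest to the right, with all 7 points between 1.97 and 4.24, and Derl3 and Sel1l lie to the left.

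**Figure D2:**
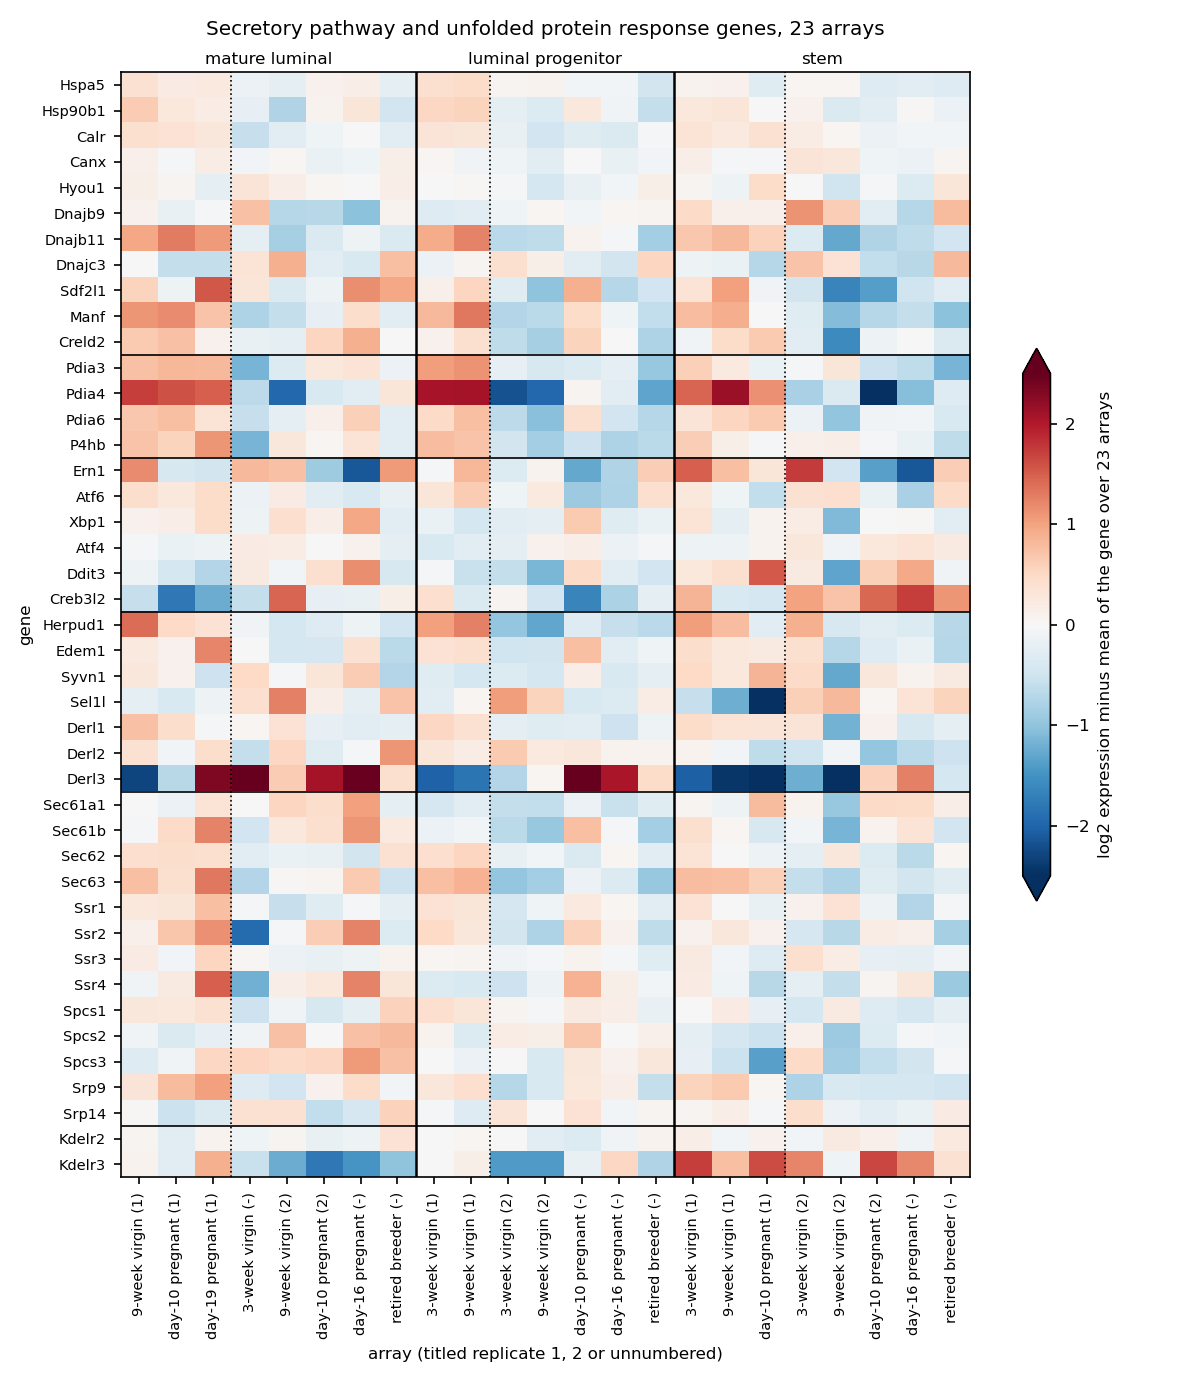
Log2 value minus the gene's mean over 23 arrays (colour, limited to 2.5 on either side of 0) for 43 genes (rows, by role) on every array (columns, mature luminal, then luminal progenitor, then stem; replicate 1 arrays left of the dotted line in each). Each disulfide isomerase row is warm in most replicate 1 columns and cool in most others, with exceptions on both sides. Derl3 has the widest range, from 1.38 to 9.06.

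The central comparison of the stages sets pregnancy (day 10 and day 16, 8 arrays) against 9-week virgins (6 arrays), averaged over the 3 cell types with equal weight. The sensor Ern1 was lower and Derl3 was higher in pregnancy, and no other member passed in the fit without the replicate number. These 2 of 43 are 4.65%, set against 7.13% of all genes (3.77% higher, 3.36% lower), and 12 of the 43 had an unadjusted p under 0.05, set against 24.95% of all genes. The median difference was -0.11 over the members and 0.10 over all genes, and 19 of 43 members were positive. With the replicate block 11 of 43 passed, 7 higher and 4 lower, which is 25.6% set against 15.6% of all genes (8.48% higher, 7.15% lower), and the median of the members was 0.14. Adding the replicate number thus moved the median of the members across 0. The counts with the block depend on treating the unnumbered arrays, among them 4 of the 8 pregnant ones, as replicate 2. Correlations were taken on each gene's deviation from its mean over all arrays, not on the values themselves. On average the unnumbered arrays correlated at -0.336 to -0.080 with the replicate 1 arrays and at -0.040 to 0.117 with the replicate 2 arrays. The day 16 mature luminal array was negative with both. With the block on the numbered arrays of the 7 groups alone, which hold stem and mature luminal cells of day 10 but no other pregnant array, 1 of 43 passed (Dnajc3, lower), 2.33% set against 5.19% of all genes. In the same comparison, without the block, 4 of 10 basal markers and 1 of 2 erythroid markers were higher, 1 of 11 luminal markers was higher and 2 were lower, and the part of such shifts in the members' differences was not tested.

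Among the sensors and transcription factors 4 of 6 passed with the block, 2 lower and 2 higher. Ern1 is the kinase and nuclease that splices Xbp1 messenger RNA. In pregnancy it read 9.51 and 7.85 in stem cells, 7.93 in luminal progenitors, and 8.80 and 8.31 in mature luminal cells at day 10, and 7.09, 8.45 and 7.09 in the same order of cell types at day 16. At 9 weeks it read 9.96 and 8.72 in stem cells, 10.04 and 9.30 in luminal progenitors, and 10.39 and 9.94 in mature luminal cells. The pregnant arrays (median 8.12) lay below the virgin ones (median 9.95), with an overlap in stem cells alone within a cell type. The difference was -1.76 ± 0.33 (limma adjusted p = 0.01), and -1.54 ± 0.26 with the block (limma adjusted p = 0.0023). All 5 Ern1 probe sets were lower in pregnancy, from -1.76 to -0.12, so the size of the change depends on the probe set. Its call was lost with the mean of its probe sets (-0.99 ± 0.31, limma adjusted p = 0.081) and with the block on the numbered arrays alone (-1.14 ± 0.31, limma adjusted p = 0.053). Retired breeders read 9.82 to 10.27, inside the 9-week range.

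Atf6, the sensor that is cut in the Golgi to become a transcription factor, read 8.12 to 9.29 (median 8.54) in pregnancy, against 8.93 to 9.66 (median 9.37) at 9 weeks. The ranges overlapped, and the difference was -0.85 ± 0.24 (limma adjusted p = 0.055), or -0.83 ± 0.23 with the block (limma adjusted p = 0.03). All 3 of its probe sets were negative. Xbp1, the transcription factor whose messenger RNA Ern1 splices, lay on the other side. It read 11.50 to 12.76 (median 11.93) in pregnancy, against 10.69 to 12.22 (median 11.56) at 9 weeks, a difference of 0.51 ± 0.17 (limma adjusted p = 0.082) and 0.55 ± 0.16 with the block (limma adjusted p = 0.036). All 4 Xbp1 probe sets were positive, from 0.51 to 0.72, and the spliced and unspliced forms were not told apart here. Ddit3 (CHOP), a factor of prolonged stress, read 8.70 to 10.67 (median 9.68) in pregnancy, against 7.83 to 9.54 (median 8.81) at 9 weeks. Its difference was 1.03 ± 0.33 (limma adjusted p = 0.081), and 1.17 ± 0.30 with the block (limma adjusted p = 0.021). Within the mature luminal replicate 1 arrays Ddit3 was negative at day 10 (-0.32) and day 19 (-0.61), while among the other mature luminal arrays it was positive at day 10 (0.48) and day 16 (1.24). In the replicate 1 stem pair of day 10 and 9 weeks it differed by 1.13. Atf4, the factor that the Perk arm turns on, had 12.39 to 12.90 in pregnancy and 12.29 to 12.75 at 9 weeks, a difference of 0.14 ± 0.13 (limma adjusted p = 0.56). Creb3l2, a membrane-bound factor of the secretory pathway, differed by -0.30 ± 0.45 (limma adjusted p = 0.73).

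Among the chaperones the differences were mostly small. Hspa5 read 12.77 to 13.30 (median 13.02) in pregnancy, against 12.84 to 13.55 (median 13.19) at 9 weeks, a difference of -0.20 ± 0.13 (limma adjusted p = 0.36). Hsp90b1 (Grp94), the ER member of the Hsp90 family, differed by 0.08 ± 0.26 (limma adjusted p = 0.88). Sdf2l1, a partner of BiP, differed by 0.15 ± 0.48 (limma adjusted p = 0.88). None of the 11 passed without the block, 1 (9.09%) had an unadjusted p under 0.05, set against 24.95% of all genes, and 2 passed with it.

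That pair was Dnajc3 and Creld2. Dnajc3 read 10 to 10.45 (median 10.19) on the 8 pregnant arrays, against 10.55 to 11.60 (median 10.81) on the 6 virgin ones. It was the only member of the 43 (2.33%) whose groups did not overlap, set against all genes, of which 0.657% lay wholly above and 0.839% wholly below. The difference was -0.70 ± 0.23 without the block (limma adjusted p = 0.088) and -0.85 ± 0.17 with it (limma adjusted p = 0.0066). With the block on the numbered arrays alone it was -0.82 ± 0.21 (limma adjusted p = 0.042), and all 5 of its probe sets were negative, from -1.19 to -0.32. Retired breeders read 11.53 in stem cells, 11.24 in luminal progenitors and 11.46 in mature luminal cells, and the lone day 19 array read 10.12. Creld2, an ER stress protein with disulfide isomerase activity, read 9.47 to 10.49 (median 10.15) in pregnancy, against 8.02 to 10.25 (median 9.70) at 9 weeks. Its difference was 0.58 ± 0.37 without the block (limma adjusted p = 0.36) and 0.86 ± 0.25 with it (limma adjusted p = 0.037). No disulfide isomerase passed in either fit, none had an unadjusted p under 0.05 in the fit without the block, and the median of the 4 was -0.36 without the block and 0.19 with it.

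In ER-associated degradation, Derl3 had the largest difference of any member and the one that rested most on low values. In pregnancy it read 1.38 and 5.32 in stem cells, 9.06 in luminal progenitors, and 4.04 and 6.81 in mature luminal cells at day 10. At day 16 it read 6.00 in stem cells, 6.78 in luminal progenitors and 7.20 in mature luminal cells, against 2.31 and 1.59, 2.91 and 4.79, and 2.45 and 5.37 in the same cell types at 9 weeks. Most pregnant arrays were above the virgin ones, but at day 10 a stem array (1.38) lay below all virgin ones and another stem array (5.32) and a mature luminal array (4.04) inside their range, and 12 of the 23 arrays read Derl3 below the array's own median, so its differences are not exact folds. The difference was 3.07 ± 0.77 (limma adjusted p = 0.034), and 2.45 ± 0.53 with the block (limma adjusted p = 0.0093), from 1 probe set. With the block on the numbered arrays alone it was 1.46 ± 0.67 (limma adjusted p = 0.25). It rested on several arrays: leaving out the day 10 luminal progenitor array, the day 16 stem or mature luminal array, the day 10 mature luminal replicate 2 array, or any of 3 virgin arrays (stem replicate 2, luminal progenitor replicate 1 and mature luminal replicate 1) gave a limma adjusted p between 0.059 and 0.106.

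Derl3 is also known to be high in plasma cells, and plasma cell transcripts moved on some of the same arrays. Jchain, the joining chain of secreted antibodies, read 11.97 on the day 10 luminal progenitor array, where Derl3 was highest, and 10.54 on the 3-week mature luminal array, where Derl3 read 8.28. Both were also high for their own range on the day 10 mature luminal replicate 2 array (Derl3 6.81, Jchain 11.30). The same held for the day 16 luminal progenitor array (6.78 and 11.18). On other arrays 1 gene was high in its own range and the other was not. The day 16 mature luminal array read 7.20 for Derl3 and 7.64 for Jchain. The day 19 mature luminal array read 7.06 for Derl3 and 4.02 for Jchain. The 9-week luminal progenitor replicate 2 array read 4.79 for Derl3 and 11.41 for Jchain. The mean of the 7 B and plasma cell markers ran from 2.74 on the day 19 mature luminal array to 8.63 on the 3-week mature luminal array, with 0 of 7 called in pregnancy and a median difference of 0.83. None of the 7 was listed at 0, and the defining marker Tnfrsf17 read 1.11 to 4.84 over all arrays. Without the day 10 and day 16 luminal progenitor arrays, Ern1 was the only member still called. The part of plasma cells in the difference was not tested.

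Sel1l read 6.86 to 10.18 (median 9.54) in pregnancy, against 8.62 to 11.09 (median 10.14) at 9 weeks, a wide overlap. Its difference was -0.57 ± 0.53 without the block (limma adjusted p = 0.55) and -1.04 ± 0.30 with it (limma adjusted p = 0.036), and 4 of its 5 probe sets were negative. Syvn1 (Hrd1), the ubiquitin ligase that Sel1l holds in place, differed by 0.49 (limma adjusted p = 0.24). The other 4 degradation genes passed in neither fit.

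In the entry machinery 3 of 13 genes were higher in pregnancy with the block (23.1%), set against 8.48% of all genes. None passed without it, and 5 (38.5%) had an unadjusted p under 0.05, set against 24.95% of all genes. Sec61b, a subunit of the translocation channel, read 11.35 to 12.87 (median 12.13) in pregnancy, against 10.59 to 12.02 (median 11.70) at 9 weeks. Its difference was 0.72 ± 0.24 (limma adjusted p = 0.085), and 0.84 ± 0.21 with the block (limma adjusted p = 0.02). Ssr2 and Ssr4 encode subunits of the translocon-associated protein complex. Ssr2 read 10.70 to 11.84 (median 10.98) in pregnancy, against 9.83 to 10.88 (median 10.64) at 9 weeks, and its difference was 0.61 ± 0.26 (limma adjusted p = 0.17), or 0.79 ± 0.20 with the block (limma adjusted p = 0.02). Ssr4 read 10.51 to 12.44 (median 11.45) in pregnancy, against 10.61 to 11.38 (median 11.09) at 9 weeks, and its difference was 0.60 ± 0.19 (limma adjusted p = 0.075), or 0.59 ± 0.18 with the block (limma adjusted p = 0.045). Of the 3 Ssr4 probe sets 2 were positive, from -0.08 to 0.60. All 3 ranges overlapped. On the replicate 1 arrays alone the differences were -0.06 for Sec61b, 0.23 for Ssr2 and -0.20 for Ssr4. In the replicate 1 stem pair of day 10 and 9 weeks they were -0.46, -0.16 and -0.59. Against 9 weeks, the replicate 1 mature luminal arrays gave 0.52, 0.57 and 0.31 at day 10, and 1.28, 1.02 and 1.58 at day 19. So the sign of each depended on the arrays compared, and with the block on the numbered arrays alone none of these 3 genes passed. Sec61a1, the pore of the channel, differed by 0.50 (limma adjusted p = 0.13), and neither KDEL receptor passed in either fit.

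**Figure D3:**
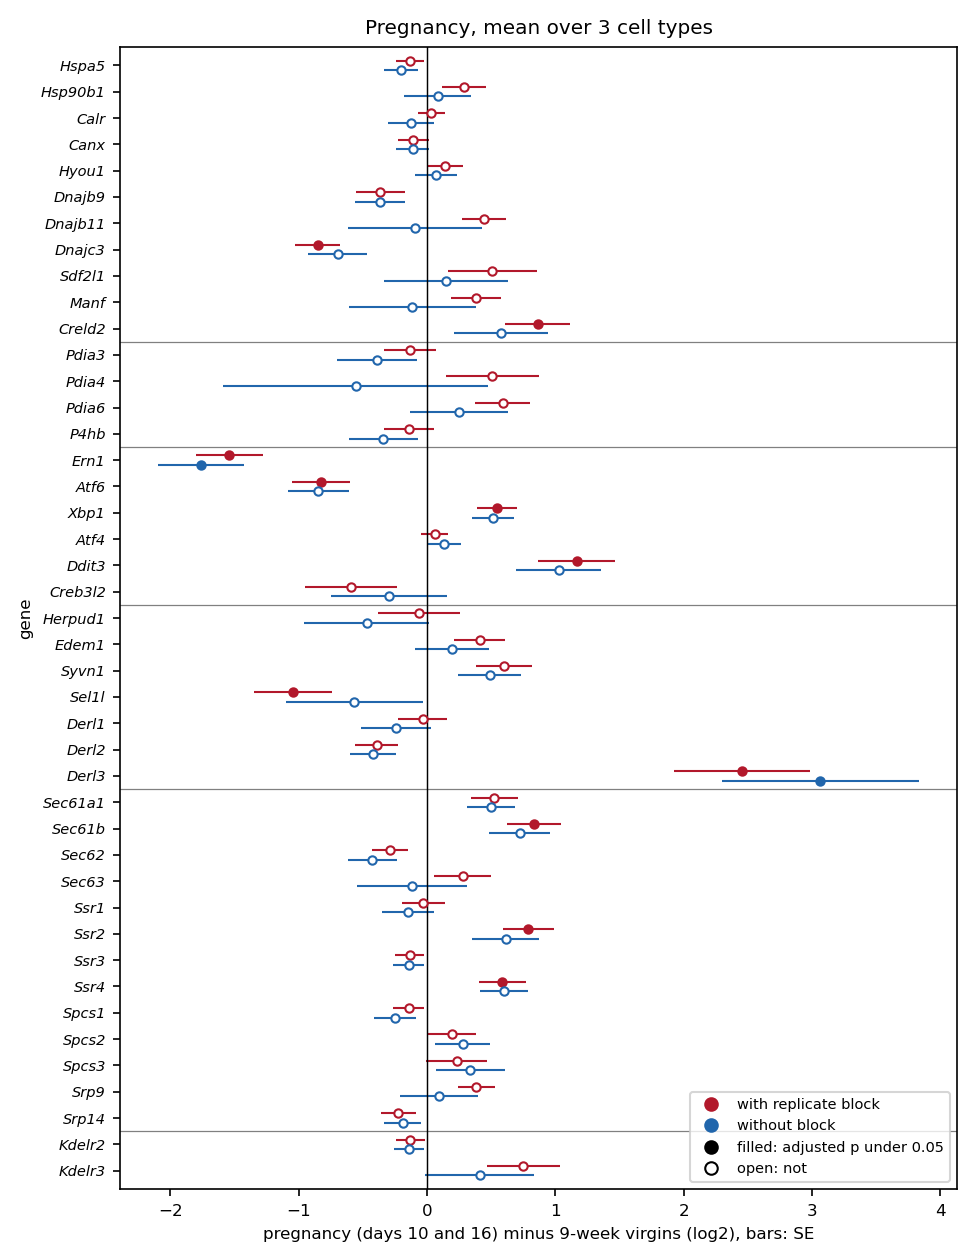
Difference in log2 value between pregnancy (days 10 and 16) and 9-week virgins for 43 genes (rows, by role), with the replicate block (red, upper mark) and without it (blue, lower mark). Bars are 1 SE and filled marks have an adjusted p under 0.05; Ern1 and Derl3 are filled in both fits, and 9 further genes in the fit with the block alone.

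**Figure D4:**
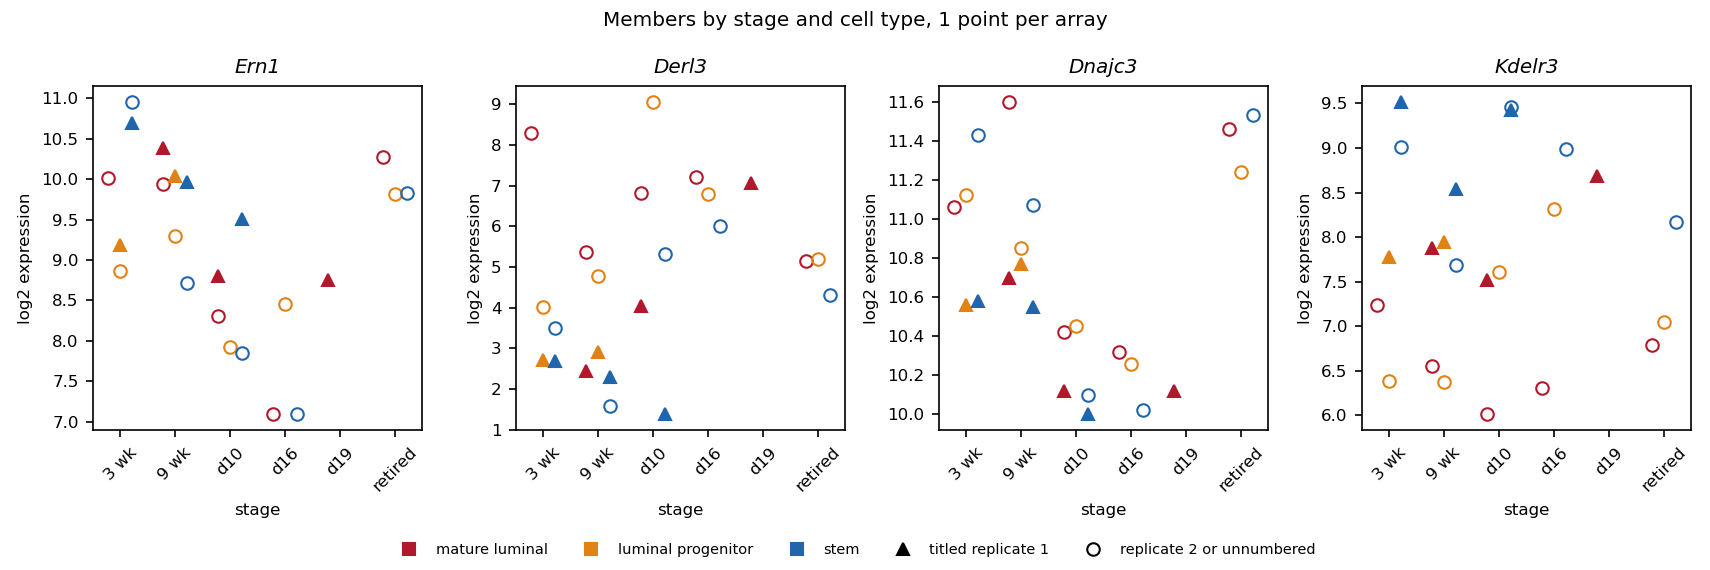
Log2 value on every array for Ern1, Derl3, Dnajc3 and Kdelr3 (panels) against reproductive stage (x axis, in order), in mature luminal cells (red), luminal progenitors (orange) and stem cells (blue); filled triangles are replicate 1 arrays and open circles replicate 2 or unnumbered ones. Dnajc3 lies at 10 to 10.45 at days 10 and 16 and at 10.55 to 11.60 at 9 weeks.

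The same question was asked within each cell type, where fewer arrays stand behind each value. No member passed in any cell type without the block, and 4 in mature luminal cells, 4 in luminal progenitors and 6 in stem cells had an unadjusted p under 0.05. These are 9.3%, 9.3% and 14% of the members, set against 12.8%, 12.8% and 12.1% of all genes, and the shares of all genes called were 2.25%, 0.156% and 0.26%. Ern1 in mature luminal cells came nearest, with -2.34 ± 0.56 (limma adjusted p = 0.057), and passed with the block at -2.18 ± 0.42 (limma adjusted p = 0.0077), where 7.23% of all genes were called. In luminal progenitors and stem cells no member passed with the block, where 1.26% and 2.2% of all genes were called. In luminal progenitors Ern1 differed by -1.48 (limma adjusted p = 0.33) and in stem cells by -1.46 (limma adjusted p = 0.35). The test of whether its change differed between mature luminal and stem cells gave -0.89 ± 0.80 (limma adjusted p = 0.99). No member passed that test, none had an unadjusted p under 0.05 (5.86% of all genes had), and 0.013% of all genes were called (0.735% with the block, again with no member).

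Single pairs of arrays show the same genes with the replicate number held alike where the titles give it. In replicate 1 pairs Ern1 differed from the 9-week array by -1.59 at day 10 and -1.64 at day 19 in mature luminal cells, and by -0.45 at day 10 in stem cells. In the replicate 2 pairs of day 10 it differed by -1.63 in mature luminal cells and -0.87 in stem cells. The unnumbered arrays, set against the 9-week replicate 2 array, gave -2.85 in mature luminal cells and -1.63 in stem cells at day 16, and -1.37 and -0.85 in luminal progenitors at days 10 and 16. All 9 Ern1 differences were thus negative, but several share a 9-week array, so they are not 9 separate comparisons. Dnajc3, in the same order, differed by -0.58, -0.58 and -0.55 in the replicate 1 pairs, by -1.18 and -0.97 in the replicate 2 pairs, and by -1.28, -1.05, -0.40 and -0.59 with the unnumbered arrays, again all negative. Derl3 differed by 1.59, 4.61 and -0.93 in the replicate 1 pairs, by 1.44 and 3.73 in the replicate 2 pairs, and by 1.83, 4.41, 4.27 and 1.99 with the unnumbered arrays. Of these 3 genes Derl3 alone changed sign between pairs. Fitted on the replicate 1 arrays alone, which hold day 10 but no day 16 array, with cell type and stage as separate terms, the pregnancy difference was -1.20 for Ern1 (limma adjusted p = 0.23) and 0.17 for Derl3 (limma adjusted p = 0.95). On the other arrays it was -1.53 for Ern1 (limma adjusted p = 0.078) and 2.95 for Derl3 (limma adjusted p = 0.062).

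On the mature luminal array of day 19 most genes of the entry machinery stood above their 9-week level. The milk protein gene Wap read 13.57 at day 19 and 13.14 at day 16 in these cells, against 3.74 and 6.21 at 9 weeks. On the single day 19 array 20 of 43 members (46.5%) lay above both 9-week arrays and 10 (23.3%) below both, set against 25% and 44.5% of all genes. Of the 13 translocation and signal peptidase genes 9 (69.2%) lay above both: Sec61b, Sec63, Ssr1, Ssr2, Ssr3, Ssr4, Spcs1, Spcs3 and Srp9. The median difference of the 13 was 0.52, with 11 of 13 positive, set against -0.24 over all genes. Compared with the replicate 1 array at 9 weeks alone, the median was 0.49 (10 of 13 positive), set against -0.23 over all genes. None of the 43 passed with 1 array, 1 (Ssr4, 2.33%) had an unadjusted p under 0.05, set against 11.1% of all genes, and 1.14% of all genes were called (4.71% with the block, again with no member). The single day 16 array had 13 of 43 above and 14 below both 9-week arrays, set against 32.6% and 39.2% of all genes, with 6 of the 13 translocation genes above. Markers of other cells moved on the day 19 array too: against 9 weeks the median was -3.79 for the 7 B and plasma cell markers (1 positive, 2 with an unadjusted p under 0.05), -2.27 for the 6 leukocyte markers (1 positive) and -0.42 for the 8 genes of the dissociation response (0 positive). None of these passed, and their part in the members' differences was not tested. The day 19 array is titled replicate 1, and the means of these lists on it were 2.7, 4.1 and 12.2. They were 4.7, 5.8 and 12.5 on the 9-week replicate 1 array, and 6.7, 6.9 and 12.8 on the replicate 2 array. The gap to the 9-week array of the same number was thus the smaller one.

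Ssr4 read 12.70 at day 19, 12.44 at day 16, and 11.43 and 11.47 at day 10, against 11.12 and 11.38 at 9 weeks in mature luminal cells. Its day 19 difference was 1.45 ± 0.42 (limma adjusted p = 0.15), or 1.47 ± 0.39 with the block (limma adjusted p = 0.052), and its 3 probe sets were all positive, from 0.145 to 1.45. Sec61b read 12.99 at day 19, 12.87 at day 16, and 12.23 and 12.16 at day 10, against 11.71 and 12.02 at 9 weeks. Both genes stood higher on the single arrays of days 16 and 19 than on either array of day 10. Of the degradation genes 2 of 7 were positive at day 19, with a median of -0.11, and one of these, Edem1, a mannosidase-like protein of glycoprotein degradation, differed by 1.33 (limma adjusted p = 0.48). The 4 disulfide isomerases were all positive at day 19 (median 0.60), but the day 19 array is titled replicate 1, and with the block their median was 0.12.

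**Figure D5:**
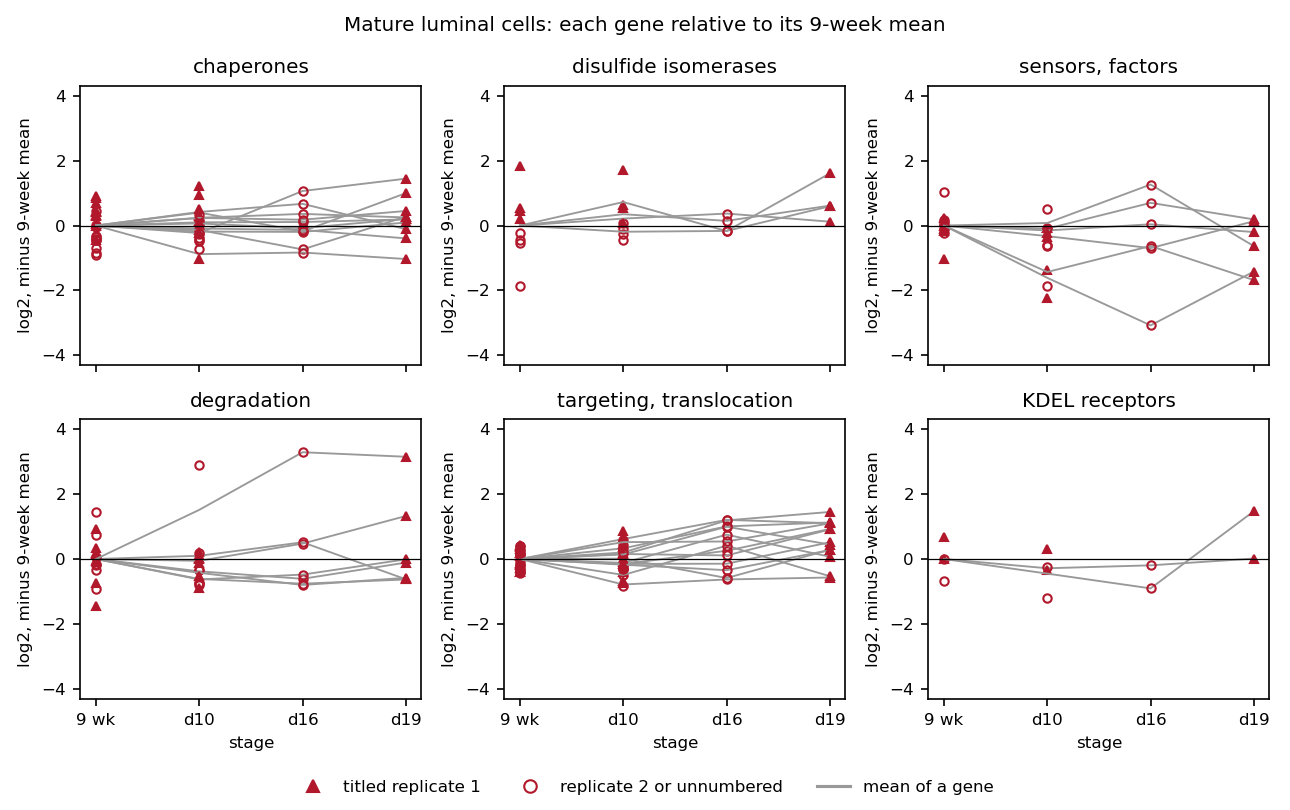
Log2 value minus the gene's 9-week mean (y axis) in mature luminal cells at 9 weeks and at days 10, 16 and 19 of pregnancy (x axis), in 6 panels by role; each line joins the means of 1 gene, from 2 arrays at 9 weeks and day 10 and 1 array at days 16 and 19. In the translocation panel 11 of 13 lines end above 0, and in the degradation panel 2 of 7 do.

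Between cell types, averaged over the 5 stages that have all 3, Kdelr3 was the only member that passed. Kdelr3 is one of the receptors that return escaped ER proteins from the Golgi. In mature luminal cells it read 7.24 at 3 weeks, 7.88 and 6.55 at 9 weeks, 7.52 and 6.01 at day 10, 6.31 at day 16 and 6.79 in retired breeders. In stem cells it read 9.52 and 9.01 at 3 weeks, 8.54 and 7.69 at 9 weeks, 9.43 and 9.46 at day 10, 8.99 at day 16 and 8.17 in the retired breeder. Mature luminal cells were lower at all 5 stages, and only the 9-week replicate 1 mature luminal array, at 7.88, reached above the lowest stem array. The day 19 mature luminal array, outside this comparison, read 8.69. The difference was -1.93 ± 0.42 (limma adjusted p = 0.015), and -1.83 ± 0.27 with the block (limma adjusted p = 0.00044). That 1 of 43 is 2.33%, set against 8.34% of all genes, and 7 of 43 (16.3%) had an unadjusted p under 0.05, set against 22.2% of all genes. Leaving out the day 16 stem array gave -1.75 (limma adjusted p = 0.051). Luminal progenitors averaged 7.44, against 8.80 in stem cells, a difference of -1.35 ± 0.42 (limma adjusted p = 0.099), or -1.25 with the block (limma adjusted p = 0.0081). In the same comparison of mature luminal with stem cells 8 of 10 basal, 3 of 7 fibroblast and 4 of 6 endothelial markers were lower and 3 of 11 luminal markers were higher, and the part of these cells in the Kdelr3 difference was not tested.

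With the replicate block 5 of 43 members (11.6%) separated mature luminal from stem cells, set against 19.7% of all genes, and 4 of 43 (9.3%) separated luminal progenitors from stem cells, set against 14.4%. Both shares were below that of all genes. Creb3l2 was lower in both, averaging 7.60 in mature luminal cells and 7.27 in luminal progenitors, against 8.73 in stem cells. Its differences with the block were -1.21 ± 0.34 for mature luminal cells (limma adjusted p = 0.025) and -1.54 ± 0.34 for luminal progenitors (limma adjusted p = 0.0099). Derl2, another Derlin, was higher in both, averaging 10.98 in mature luminal cells and 11.06 in luminal progenitors, against 10.38 in stem cells. Its differences were 0.61 ± 0.16 (limma adjusted p = 0.017) and 0.69 ± 0.16 (limma adjusted p = 0.013). Derl3 was higher too, by 2.07 ± 0.50 (limma adjusted p = 0.012) and 1.73 ± 0.50 (limma adjusted p = 0.037). Spcs3, a subunit of signal peptidase, was higher in mature luminal cells, at 9.45 against 8.51 in stem cells, by 0.91 ± 0.23 (limma adjusted p = 0.015).

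Without the block no member separated luminal progenitors from stem cells, 5 of 43 (11.6%) had an unadjusted p under 0.05, set against 18.9% of all genes, and 4.38% of all genes were called. Derl2 came nearest (limma adjusted p = 0.052). All 13 translocation genes were positive between mature luminal and stem cells, with a median of 0.11 set against 0.03 over all genes. Mature luminal cells and luminal progenitors were not separated by any member in either fit: 1 of 43 (2.33%) had an unadjusted p under 0.05, set against 4.72% of all genes, and 0.124% of all genes were called without the block, 0.995% with it. In that comparison 34 of 43 members were positive, with a median of 0.13, set against 52.6% positive and a median of 0.02 over all genes.

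The other stages showed no member that passed, with or without the block. Between 3-week and 9-week virgins none of 43 had an unadjusted p under 0.05, set against 10.9% of all genes (smallest limma adjusted p = 0.49), and 0.176% of all genes were called, 2.65% with the block. Between retired breeders and 9-week virgins 2 (4.65%) had an unadjusted p under 0.05, set against 7.24% of all genes (smallest limma adjusted p = 0.66), and 0.0065% of all genes were called, 0.0195% with the block. The 4 disulfide isomerases were all negative in retired breeders (median -0.72, set against 0.21 over all genes), and their median was -0.15 with the block; all 3 retired breeder arrays are unnumbered. Between day 16 and day 10 none had an unadjusted p under 0.05, set against 1.38% of all genes, and 0% of all genes were called in either fit.

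Members differed widely in how much they varied at all. Canx, the lectin chaperone calnexin, spanned 0.60 over the 23 arrays and Atf4 and the KDEL receptor Kdelr2 each spanned 0.72. Ern1 spanned 3.87, Sel1l 4.23, Pdia4 4.68 and Derl3 7.68. Pdia4 and Derl3, the widest, were also the members most often read below the array's own median, on 4 and 12 arrays.

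Of the further genes of the pathway, listed beside the members, few passed without the block in pregnancy, where 3.77% of all genes were higher, 3.36% lower and 24.95% had an unadjusted p under 0.05, with a median of 0.10. Among 26 genes of N-glycosylation and targeting 1 passed and 7 (26.9%) had an unadjusted p under 0.05 (median 0.30), shares near those of all genes. That gene was Srp19, a protein of the signal recognition particle, higher by 0.81 ± 0.21 (limma adjusted p = 0.042). Among 31 genes of the unfolded protein response, folding and degradation 1 was higher and 1 lower (median 0.18), and 8 (25.8%) had an unadjusted p under 0.05. Bhlha15 (Mist1), a transcription factor of secretory cells and a target of Xbp1, was higher by 2.04 ± 0.47 (limma adjusted p = 0.024), though on the replicate 1 arrays alone its difference was -0.08. Wfs1, an ER membrane protein mutated in Wolfram syndrome, differed by -1.87 ± 0.38 (limma adjusted p = 0.014). In mature luminal cells it read 8.09 and 7.11 at day 10 and 7.13 at day 16, against 10.91 and 10.21 at 9 weeks. Among 34 genes of ER to Golgi transport 1 was higher (median 0.09) and 6 (17.6%) had an unadjusted p under 0.05. That gene was Copz2, a coatomer subunit, higher by 1.73 ± 0.46 (limma adjusted p = 0.044).

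With the block 7 of 26 N-glycosylation and targeting genes were higher and none lower, set against 8.48% of all genes higher and 7.15% lower: Alg5, Dpagt1, Krtcap2, Ostc, Sec11c, Srp19 and Srprb. Of the 31 response genes 4 were higher (Bhlha15, Creb3, Mbtps1 and Ube2j1) and Wfs1 was lower. Of the 34 transport genes 5 were higher (Copb2, Cope, Copz2, Preb and Stx5a) and Sec24a was lower. Between mature luminal and stem cells Sec11c, a catalytic subunit of signal peptidase, was higher by 0.94 ± 0.24 without the block (limma adjusted p = 0.031). On the day 19 mature luminal array Mcfd2, a partner of the cargo receptor Lman1, was higher than at 9 weeks by 2.14 ± 0.45 (limma adjusted p = 0.044).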

How the data were processed

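Messenger RNA of purified mammary epithelial cells was measured on Affymetrix arrays (per the labels' protocols). The authors deposited 1 table of log2 expression values for 45101 probe sets on 23 arrays. That the deposited values are log2 follows from their range, 0 to 14.28. Their software was not given in the sources used here, and no further scaling was applied. Probe sets were named through the platform annotation, in which 34945 list 1 symbol and 932 list several. Each gene took its probe set with the highest mean. Genes above the 40th percentile of their array on at least 2 arrays were kept, 15378 of 18193. The members and the lists beside them were chosen with earlier results of these data known.

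A linear model in limma 3.58.1 (R 4.3.3) held 1 mean for each of the 16 groups, with eBayes and an intensity trend. Its residual degrees of freedom were 7 and its prior ones 4.74, and single-array groups were taken to vary like the others. Tests were two-sided, p-values were adjusted by Benjamini-Hochberg over all 15378 genes, and a gene passed at an adjusted p under 0.05. The method was tested on simulated data. Replicate numbers come from the titles. Same-numbered arrays deviated together in 21 of 21 pairs of groups (correlation 0.303 to 0.682, median 0.47). The block is a term for replicate 1, estimated from the 7 groups that have both numbers, and the 8 unnumbered arrays were treated as not replicate 1. That is an assignment and not a label. On deviations from each gene's mean over all arrays, their mean correlation was closer to the replicate 2 arrays in 8 of 8, but near 0 (-0.040 to 0.117). No 2 arrays held the same values. Precision is limited by the number of arrays. Every member that passed a comparison is named. In 2 comparisons, pregnancy against virgins and mature luminal against stem cells, 12 members were looked at whether or not they passed. These were Hspa5, Hsp90b1, Xbp1, Atf4, Ddit3, Ern1, Atf6, Derl3, Sdf2l1, Creld2, Sel1l and Creb3l2. Of each list of further genes up to 4 that passed are named. Other genes given with values, and those named with the block, were chosen after their values were seen. Alternatives changed the scaling, the filter, the probe set rule, a floor at the array median, the arrays included and the block.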

Additional observations from a re-analysis of the deposited data

How the results depend on the processing

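The counts of members that passed shifted as follows, and the cause was not tested. In pregnancy against 9-week virgins, 2 of 43 became 1 with the mean of a gene's probe sets (Derl3), with only the groups compared (Ern1), and without the day 10 and day 16 luminal progenitor arrays (Ern1; chosen after seeing the data). With the replicate block on the numbered arrays it became 1 (Dnajc3), with the replicate block on all arrays 11, and on the replicate 1 arrays alone 0. Leaving out 1 array gave 1 to 7, with 7 without the 9-week stem replicate 1 array. Between mature luminal and stem cells, 1 became 3 with quantile scaling and with the mean of probe sets (Derl2, Kdelr3 and Spcs3 in both), 5 with the replicate block, 0 on the replicate 1 arrays alone, 3 on the others (Derl3, Kdelr3 and Spcs3), and 2 without the 3-week mature luminal and retired breeder stem arrays. Leaving out 1 array gave 0 to 4, with 0 without the day 16 stem array and 4 without the 3-week mature luminal array. Between luminal progenitors and stem cells, 0 became 1 with quantile scaling, a floor at the array median and the mean of probe sets (Derl2 each time), 4 with the replicate block, 1 with the block on numbered arrays (Kdelr3), and 1 without the replicate 1 arrays (Creb3l2). In pregnancy within luminal progenitors the floor gave 1 (Derl3), and within mature luminal cells the floor and the replicate block each gave 1 (Ern1), with 0 to 1 on leaving out 1 array.

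Of 2662 values of single genes under the alternatives, 2320 kept their direction and side of the threshold and 47 changed sign. In pregnancy the mean of probe sets gave -0.065 for Atf4 and -0.22 for Hsp90b1. The replicate 1 arrays alone gave -0.34 for Hsp90b1, -0.88 for Sdf2l1, -0.059 for Sec61b, -0.20 for Ssr4 and -0.082 for Bhlha15, and the block on numbered arrays gave -0.33 for Sdf2l1. Between mature luminal and stem cells Atf6 became 0.048 with quantile scaling, 0.047 with the mean of probe sets, 0.28 with the block on numbered arrays, 0.61 on the replicate 1 arrays and 0.33 without the 3-week mature luminal and retired breeder stem arrays. Under the last 3 Hsp90b1 gave 0.15, 0.30 and 0.19, and 0.031 with the block on all arrays. On the replicate 1 arrays Ern1 gave -0.32 and Sdf2l1 -0.23, on the others Ddit3 gave 0.19 and Sel1l -0.012, and Hspa5 gave -0.12 with the mean of probe sets. Leaving out 1 array moved, between mature luminal and stem cells, Atf6 from -0.14 to 0.13, Ddit3 from -0.34 to 0.006, Ern1 from -0.10 to 0.29 and Hsp90b1 from -0.17 to 0.11, and in pregnancy Creb3l2 from -0.64 to 0.045, Hsp90b1 from -0.15 to 0.31 and Sdf2l1 from -0.30 to 0.59. Signal near the floor limits Derl3, and 9 groups rest on 1 array.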
